A study of Mus musculus with 9 samples.

Results

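The genes described here are of families that encode receptors by which natural killer (NK) cells recognise other cells. Klra13-ps is annotated as a pseudogene, but is counted below among the receptors. The genes are Klrc1, Klrc2, Klrd1, Klrk1, Klrb1c, Klre1, Klrg1, Klra13-ps and Ncr1, 9 of the 19505 named genes measured. They were selected by symbol, each has 1 probe set, and the selection was made with earlier results of these arrays known, so the changes below describe them and support nothing independently. The cells were C1498, a mouse leukaemia line. Lentivirus delivered GFP with a short hairpin RNA against the transcriptional repressor Zeb1, hairpin sequence C (shZeb1_C) or sequence D (shZeb1_D), or with a negative control construct (Scr), and GFP+ cells were collected 2 weeks later. RNA from each group was hybridised to 3 arrays, named here by the sample numbers in their titles. Every group carried virus and GFP, and no uninfected cells are among the 9 arrays. C1498 is a single tumour line. Nothing in the labels states that the 3 samples of a group were infected separately, and the p-values may therefore reflect only technical spread between samples.

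Most of these receptors are C-type lectin-like proteins that act as pairs of chains on the cell surface and are encoded side by side in the NK gene complex, on chromosome 6 in the mouse. Inhibitory members carry a signalling motif in their tail, many of them respond to MHC class I, and activating members signal through small adaptor proteins such as Tyrobp (DAP12), Hcst (DAP10) and Fcer1g. NK cells and some T cells carry them, and neighbouring genes of the complex are often switched on in only part of a population. Ncr1 (NKp46) is the exception in type among the 9, an immunoglobulin-type receptor encoded on chromosome 7. Klrg1 lies on chromosome 6, but outside the stretch from Klrb1a to Klra2 taken below as the complex.

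Upstream sequence is shown for Klrc1 and Klrk1, because their signals differed most clearly from Scr among the members with a RefSeq promoter entry, and for the neighbours Klrc2 and Klrc3, because they are near-identical there. Entries of assembly GRCm38.p6 matched 6 of 9 members; Klrd1, Klrg1 and Klra13-ps had none. Each line gives the 250 bases before an annotated transcription start, 5' to 3', and all 4 genes lie on the minus strand, at chr6:129678974-129679223 (Klrc1), chr6:129623865-129624114 (Klrk1), chr6:129660557-129660806 (Klrc2, 1 of its annotated starts) and chr6:129643289-129643538 (Klrc3). Capitals mark TGTGGT or its reverse complement ACCACA, the core letters bound by Runx factors.
Klrc1: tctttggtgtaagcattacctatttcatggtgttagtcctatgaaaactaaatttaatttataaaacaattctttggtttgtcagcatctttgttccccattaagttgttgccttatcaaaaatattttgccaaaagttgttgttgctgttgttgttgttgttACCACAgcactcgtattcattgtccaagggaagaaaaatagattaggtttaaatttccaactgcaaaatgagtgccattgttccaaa
Klrk1: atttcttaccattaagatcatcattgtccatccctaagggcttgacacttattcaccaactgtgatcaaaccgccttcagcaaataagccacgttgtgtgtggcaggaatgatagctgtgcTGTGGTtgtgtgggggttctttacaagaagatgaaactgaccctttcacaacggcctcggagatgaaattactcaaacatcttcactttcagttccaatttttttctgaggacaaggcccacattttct
Klrc2: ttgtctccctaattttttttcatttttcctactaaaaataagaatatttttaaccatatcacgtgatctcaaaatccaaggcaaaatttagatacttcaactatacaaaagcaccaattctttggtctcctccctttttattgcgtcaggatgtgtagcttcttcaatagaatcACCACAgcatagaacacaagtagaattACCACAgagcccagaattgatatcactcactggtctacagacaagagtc
Klrc3: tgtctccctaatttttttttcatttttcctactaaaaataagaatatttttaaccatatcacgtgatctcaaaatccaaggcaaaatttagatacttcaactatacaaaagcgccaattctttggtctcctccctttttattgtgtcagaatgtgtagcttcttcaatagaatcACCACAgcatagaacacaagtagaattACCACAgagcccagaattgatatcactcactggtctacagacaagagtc

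On either strand, the letters TGTGGT were found in at least 1 window of 6 of 6 matched members, against 15.9% of 27025 genes and 3 of 19 other Klr genes. The other motifs searched were CAGGTG (reverse complement CACCTG), an E-box that Zeb1 binds, and CAGGTA (reverse complement TACCTG), which differs from it in the last letter; matches to CAGGTG and TGTGGT may share bases. They were found in 0 of 6 matched members, against 19.4% and 11.4% of all genes. Klrc2 and Klrc3 were identical at 246 of 249 aligned bases (98.8%). A match of letters in this window is a description and shows no binding. The members with TGTGGT included Klre1 and Ncr1, whose signals differed little between groups.

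Zeb1 itself, the targeted gene, had log2 signals of 10.41, 10.01 and 10.34 on the arrays labelled shZeb1_C, 9.56, 9.26 and 9.40 in shZeb1_D and 10.52, 10.29 and 10.56 in Scr. Here and below, limma was fitted to all 9 arrays, and a gene was called, or said to have risen or fallen, at a Benjamini-Hochberg adjusted p under 0.05. Zeb1 fell by 1.05 ± 0.16 on the log2 scale in shZeb1_D (SE; limma adjusted p = 0.0263). That call was lost without Scr array 7, 8 or 9 or shZeb1_D array 14 or 15, where the adjusted p reached 0.157, while the change stayed between -1.13 and -0.98. In the arrays labelled shZeb1_C the Zeb1 change was -0.20 ± 0.16 (adjusted p = 0.895), so the targeted transcript does not separate those arrays from Scr. Every difference given below for shZeb1_C is therefore a difference of the cells carrying that label, without a called fall of Zeb1 RNA beside it.

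Whether a probe set gave signal was judged against 1414 probe sets of olfactory and vomeronasal receptor genes, most of which are not expected to be expressed in blood cells. Their mean log2 signals had a median of 5.72 and a 95th percentile of 7.26. Averaged over the 9 arrays, 4 of the 9 receptors lay above that percentile: Klrd1, Klra13-ps, Klrk1 and Klre1. Klrb1c, Klrc1, Klrc2, Klrg1 and Ncr1 lay below it, so small differences of those 5 lie among signals of genes mostly not expected in blood cells. The gauge is only a description, since probe sets differ in brightness for reasons of sequence.

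**Figure D1:**
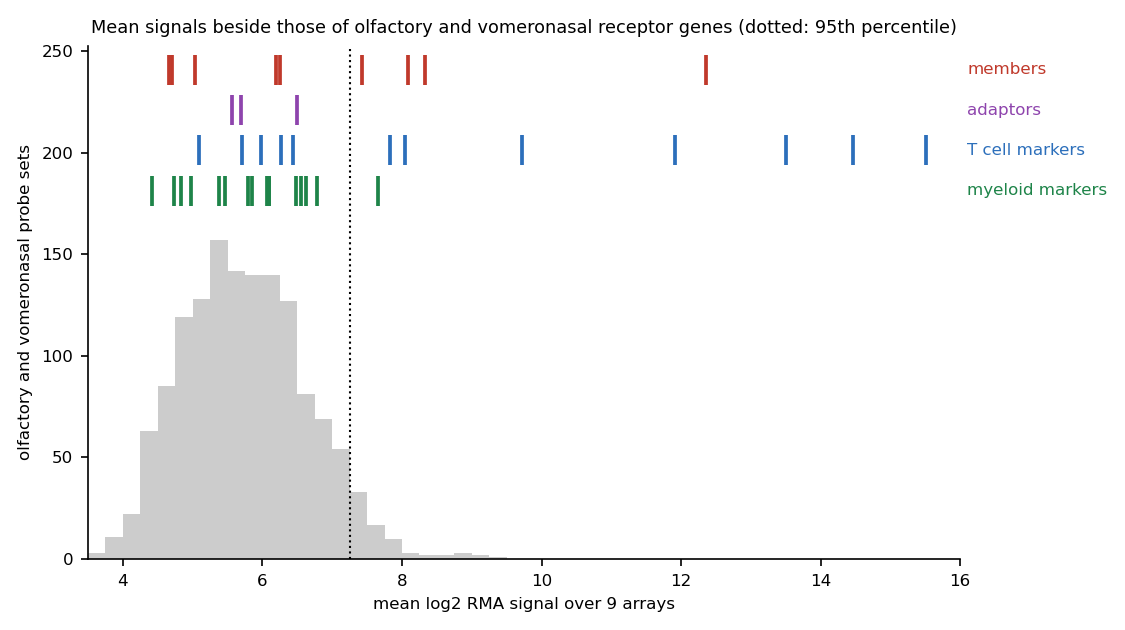
Mean log2 RMA signal over 9 arrays of each member (red), of the adaptors Tyrobp, Hcst and Fcer1g (purple), and of the T cell (blue) and myeloid (green) markers, above a histogram of 1414 olfactory and vomeronasal receptor probe sets. The dotted line is the 95th percentile of those probe sets, 7.26; 4 of 9 members, 0 of 3 adaptors, 7 of 12 T cell markers and 1 of 16 myeloid markers lie to its right.

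C1498 is usually described as an acute myeloid leukaemia. Of 16 myeloid markers measured, 1 lay above the 95th percentile of the gauge, Mpo at a mean of 7.66, and Spi1, Cebpa and Csf1r lay below it. Of 12 T cell markers 7 lay above it, with Cd3g at 15.51 and Cd3e at 14.46. Thy1, Cd5, Cd6, Cd8a and Cd8b1 lay below it. Of 4 B cell markers 0 lay above it. Of 4 mast cell and basophil markers 1 did, Cpa3 at 15.37, as did 1 of 4 dendritic and 1 of 2 erythroid markers. Of the T cell markers 0 were called between any groups. The shares of all probe sets called were 0.945% in shZeb1_C against Scr, 0.843% in shZeb1_D against Scr and 0.848% between the hairpins. At an unadjusted limma p under 0.05 there were 2, 2 and 4 of the 12, beside 8.77%, 13.6% and 11.7% of all probe sets. The summed T cell signal, as log2, was 16.73 to 16.83 in shZeb1_C, 16.17 to 16.21 in shZeb1_D and 16.25 to 16.63 in Scr. The myeloid sums were 10.09 to 10.19 in shZeb1_C, 10.05 to 10.25 in shZeb1_D and 10.03 to 10.09 in Scr. The part of these marker signals in the receptor results was not tested, and in these bulk samples a change in the number of cells that carry a transcript cannot be told apart from a change in RNA per cell.

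In the arrays labelled shZeb1_C, 3 of the 9 receptors rose against Scr and 0 fell. They were Klrc1 and Klrk1, which encode NKG2A and NKG2D, and Klra13-ps, a sequence of the Ly49 family annotated as a pseudogene. For comparison, 0.945% of all 19572 named probe sets were called in this comparison, 0.659% higher. The median change of the 9 receptors was 1.51 on the log2 scale and that of all probe sets was 0.00, and all 9 receptors had a positive change, against 50.1% of all probe sets. Klrc1, Klrk1, Klra13-ps and Klrb1c, 4 of 9, were higher on every shZeb1_C array than on every Scr array, as were 7.5% of all probe sets.

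**Figure D2:**
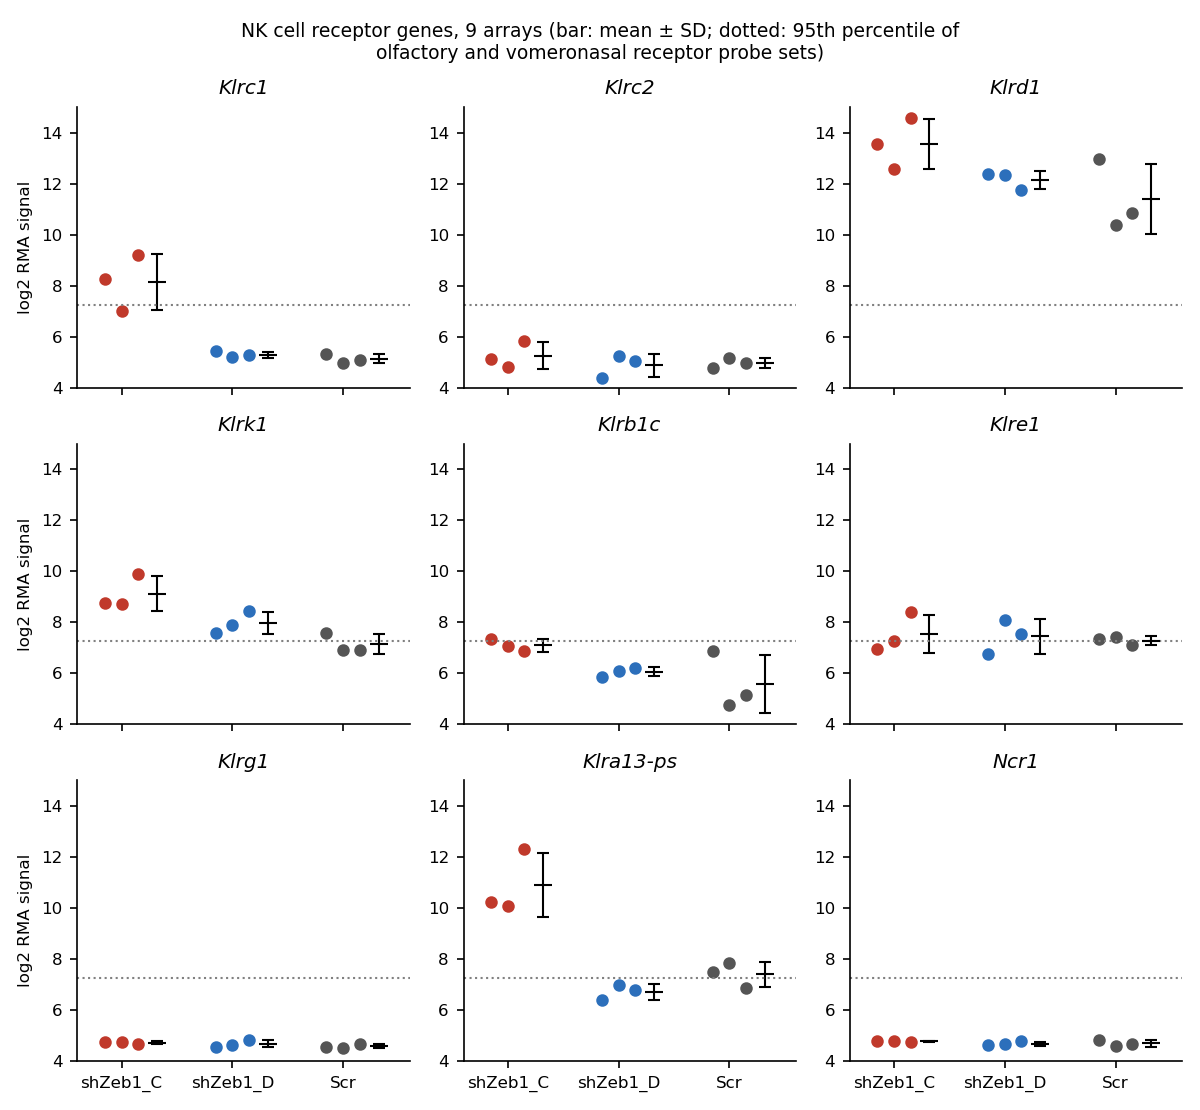
Log2 RMA signal of the 9 receptor genes on each array, with shZeb1_C in red, shZeb1_D in blue and Scr in grey; bars give the mean ± SD of 3 arrays, and the dotted line is the 95th percentile of olfactory and vomeronasal probe sets. Klrc1 and Klra13-ps stand above both other groups on every shZeb1_C array, and Klrg1 and Ncr1 lie between 4.52 and 4.84 on all 9.

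Klrc1 encodes the inhibitory chain that pairs with CD94 and binds Qa-1. Its log2 signals were 8.25, 7.00 and 9.20 in shZeb1_C, 5.43, 5.20 and 5.27 in shZeb1_D and 5.32, 4.97 and 5.09 in Scr. The lowest shZeb1_C array lay above all 6 others, and 2 of the 3 shZeb1_C arrays, but 0 of the shZeb1_D and Scr arrays, exceeded the 95th percentile of the olfactory gauge. Klrc1 rose by 3.02 ± 0.44 in shZeb1_C against Scr (SE; limma adjusted p = 0.0157). The shZeb1_D and Scr signals lay below the gauge's median of 5.72, so the size of the difference is uncertain.

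Klrd1 encodes CD94, the partner chain of the Klrc products. Its log2 signals were 13.55, 12.57 and 14.55 in shZeb1_C, 12.37, 12.32 and 11.73 in shZeb1_D and 12.97, 10.38 and 10.83 in Scr. Klrd1 was bright on all 9 arrays, and Scr array 7 lay above the lowest shZeb1_C array. The change in shZeb1_C against Scr was 2.16 ± 0.67, which was not called (limma adjusted p = 0.271).

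Klrc2, which encodes the activating chain NKG2C, had log2 signals of 5.11, 4.80 and 5.84 in shZeb1_C, 4.37, 5.23 and 5.04 in shZeb1_D and 4.79, 5.16 and 4.95 in Scr. All 9 lay below the gauge's 95th percentile and the groups overlapped, with a change of 0.28 ± 0.30 in shZeb1_C (limma adjusted p = 0.95). Its near-copy Klrc3 had 6.26, 5.76 and 7.80 in shZeb1_C, 5.28, 5.15 and 4.91 in shZeb1_D and 5.09, 4.92 and 4.75 in Scr. Klrc3 was higher on all 3 shZeb1_C arrays than on the 6 others, with a change of 1.69 against Scr that did not pass the test (adjusted p = 0.153). Klrc1, Klrc2 and Klrc3 are close relatives, and how far a probe set of one picks up RNA of another was not tested.

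Klrk1 encodes NKG2D, an activating receptor for stress-induced ligands. Its log2 signals were 8.75, 8.72 and 9.91 in shZeb1_C, 7.60, 7.90 and 8.43 in shZeb1_D and 7.60, 6.93 and 6.92 in Scr. Klrk1 rose by 1.98 ± 0.36 in shZeb1_C against Scr (SE; limma adjusted p = 0.0432), 3.94-fold on the linear scale. The shZeb1_D arrays lay between the other groups, and the lowest of them equalled the highest Scr array. This call was the least secure of the 3: it was lost on leaving out any 1 of 8 arrays (all but shZeb1_D array 13) and on normalising the arrays again by quantiles.

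Klra13-ps lies in the cluster of Ly49 genes, whose intact members encode receptors for classical MHC class I in mice. Its log2 signals were 10.25, 10.08 and 12.33 in shZeb1_C, 6.38, 6.99 and 6.77 in shZeb1_D and 7.49, 7.84 and 6.88 in Scr. All 3 shZeb1_C arrays lay well above the other 6, and shZeb1_D and Scr overlapped. Klra13-ps rose by 3.48 ± 0.54 in shZeb1_C against Scr (SE; limma adjusted p = 0.0205), 11.2-fold on the linear scale. Ly49 genes are near-copies of one another, so which Ly49 transcripts gave this signal is uncertain.

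Klrb1c encodes NK1.1, an activating receptor by which NK cells of some mouse strains are recognised. It had log2 signals of 7.35, 7.07 and 6.87 in shZeb1_C, 5.87, 6.11 and 6.21 in shZeb1_D and 6.86, 4.75 and 5.14 in Scr. The lowest shZeb1_C array and Scr array 7 were 0.01 apart, and the change of 1.51 ± 0.46 was not called (limma adjusted p = 0.249). Without Scr array 7 the change was 2.15 and the adjusted p 0.00928.

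Klre1 encodes a chain that pairs with Klri1 into an inhibitory or with Klri2 into an activating receptor. Klre1 ran from 6.97 to 8.40 in shZeb1_C, 6.74 to 8.09 in shZeb1_D and 7.10 to 7.42 in Scr, and its change in shZeb1_C was 0.26 ± 0.41 (limma adjusted p = 0.992). The mean log2 signals of Klri1 were 7.79 ± 0.34 in shZeb1_C, 7.96 ± 0.52 in shZeb1_D and 7.65 ± 0.24 in Scr (SD, n = 3 arrays each), and those of Klri2 were 6.85 ± 0.20, 6.42 ± 0.20 and 6.20 ± 0.15 in the same groups. Neither was called. Klrg1, an inhibitory receptor for cadherins that marks mature NK and effector T cells, ran from 4.65 to 4.76 in shZeb1_C, 4.57 to 4.84 in shZeb1_D and 4.52 to 4.66 in Scr. Ncr1 ran from 4.75 to 4.80 in shZeb1_C, 4.62 to 4.77 in shZeb1_D and 4.59 to 4.83 in Scr. At that brightness a fall or a small rise in Klrg1 or Ncr1 RNA may not be detectable.

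The rises in shZeb1_C rested on few arrays. With only the 6 arrays of shZeb1_C and Scr in the fit, limma called 0 of 9 receptors at an adjusted p under 0.05 (Klrc1 0.0606, Klra13-ps 0.0663, Klrk1 0.0842; with all 9 arrays 5 of 9 had an unadjusted p under 0.05, beside 8.77% of all probe sets). Without Scr array 8 or 9 the count was 0, without Scr array 7 it was 1 (Klrb1c), without shZeb1_C array 10 it was 1 (Klra13-ps) and without shZeb1_D array 15 it was 1 (Klrc1). The sizes moved less: over the 9 fits that left out 1 array, the change ran from 2.50 to 3.60 for Klrc1, 1.58 to 2.20 for Klrk1 and 2.76 to 3.89 for Klra13-ps.

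Arrays 8, 12, 14 and 15 also deviated together from their group means across the genome, along a first principal component that held 57.9% of the variance within groups. shZeb1_C array 12, the highest array for Klrc1, Klrc2, Klrd1, Klrk1, Klre1 and Klra13-ps, is one of them. Among the other 5 arrays (shZeb1_C 10 and 11, shZeb1_D 13, Scr 7 and 9) the shZeb1_C minus Scr differences were 2.42 for Klrc1, 1.47 for Klrk1 and 2.98 for Klra13-ps. Within those 4 arrays they were 4.23, 2.98 and 4.49, from 1 shZeb1_C and 1 Scr array. Each of the 3 genes was higher on every shZeb1_C array than on every Scr array. A positive difference within each set was thus fixed beforehand, and only its size is a result.

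In shZeb1_D limma called 0 of the 9 receptors against Scr, where 0.843% of all probe sets were called, 0.399% higher, and 1 of 9 had an unadjusted p under 0.05, beside 13.6% of all probe sets. On every shZeb1_D array compared with every Scr array, 0 of 9 receptors were higher and 0 lower, against 10.3% and 6.65% of all probe sets. The median change was 0.17, beside 0.04 for all probe sets, and 6 of 9 changes were positive, beside 55.8% of all probe sets. The sizes were 0.17 ± 0.44 for Klrc1 (limma adjusted p = 0.897), 0.83 ± 0.36 for Klrk1 (0.357), 0.75 ± 0.67 for Klrd1 (0.665), 0.48 ± 0.46 for Klrb1c (0.684) and -0.69 ± 0.54 for Klra13-ps (0.609). The count stayed at 0 under each of the 19 other settings tried.

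**Figure D3:**
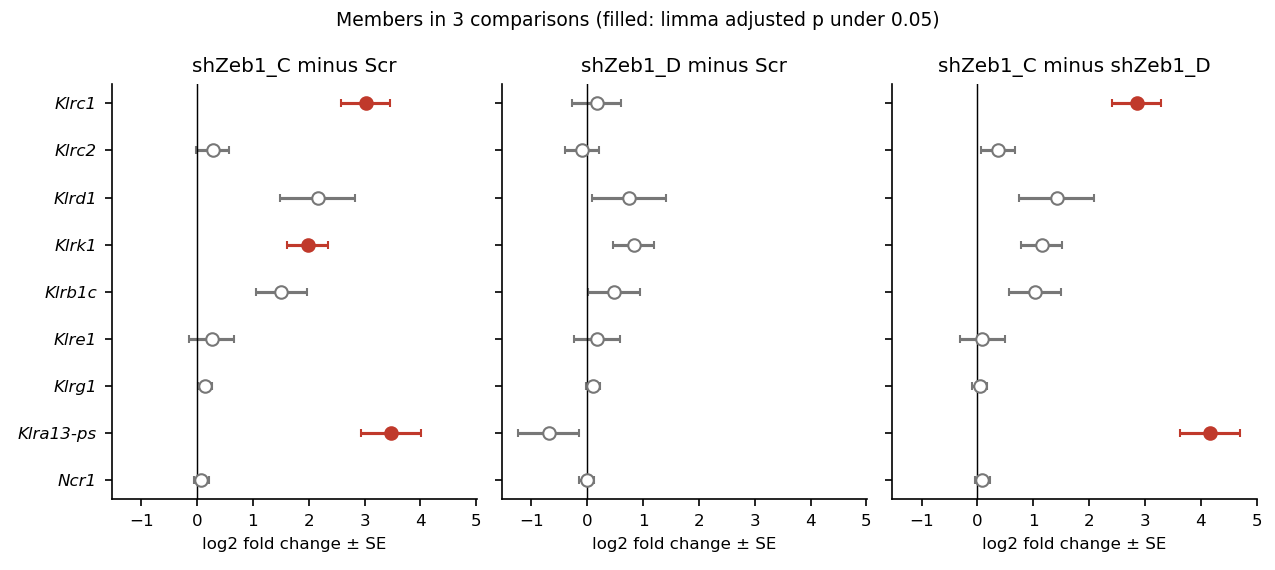
Log2 fold change ± SE of the 9 receptor genes in shZeb1_C minus Scr, shZeb1_D minus Scr and shZeb1_C minus shZeb1_D, from limma fitted to 9 arrays; filled points have an adjusted p under 0.05. There are 3 filled points in the left panel, 0 in the middle and 2 on the right.

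Set directly against shZeb1_D, shZeb1_C had higher signals of Klrc1 and Klra13-ps, 2 of the 9 receptors, where 0.848% of all probe sets were called, 0.542% higher. Klrc1 was higher by 2.85 ± 0.44 (SE; limma adjusted p = 0.0221) and Klra13-ps by 4.17 ± 0.54 (adjusted p = 0.00999); in both genes all 3 shZeb1_D arrays lay below the gauge's 95th percentile. Klrd1, Klrk1 and Klrb1c were also higher on every shZeb1_C array than on every shZeb1_D array, making 5 of 9 receptors, beside 6.26% of all probe sets (8.99% were lower), but their differences of 1.42 ± 0.67, 1.15 ± 0.36 and 1.03 ± 0.46 did not pass the test (adjusted p = 0.465, 0.242 and 0.429). Without shZeb1_D array 15 neither gene was called (Klra13-ps adjusted p = 0.0587), and the Klrc1 call was also lost without Scr array 9, shZeb1_C array 10 or shZeb1_D array 13 or 14, and with only the 6 arrays of the hairpins in the fit. This comparison shares the shZeb1_C arrays with that against Scr.

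For Klrc1, Klrd1, Klrk1 and Klrb1c the groups thus ran in the order shZeb1_C, shZeb1_D, Scr by mean, and for Klra13-ps in the order shZeb1_C, Scr, shZeb1_D. In all 5 the difference between shZeb1_D and Scr did not pass the test. Across the 9 arrays Pearson's r among these 5 receptors ran from 0.61, between Klra13-ps and Klrb1c, to 0.95, between Klrc1 and Klra13-ps. It was 0.88 between Klrc1 and Klrk1, 0.87 between Klrd1 and Klrb1c, 0.83 between Klrc1 and Klrd1, 0.71 between Klra13-ps and Klrd1 and 0.70 between Klrc1 and Klrb1c. The points share the group differences above and the deviation of arrays 8, 12, 14 and 15, so the coefficients describe the 9 arrays only.

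Among 9308 other named probe sets brighter than the median, the 5 whose signals followed Klrc1 most closely over the 9 arrays were Tnfrsf9 (r = 0.986), which encodes the costimulatory receptor 4-1BB, Gzmb (0.983), Nlrc3 (0.971), Bcl2a1d (0.969) and Edaradd (0.961). Tnfrsf9 had 11.30, 9.58 and 11.94 in shZeb1_C, 8.34, 7.77 and 7.87 in shZeb1_D and 7.45, 7.09 and 7.03 in Scr, with array 11 the lowest of shZeb1_C as for Klrc1. Klra13-ps was followed by Edaradd (0.978), Arnt2 (0.970), Cr1l (0.967), Iffo2 (0.963) and Bcl2a1d (0.962). Klrk1 was followed by another set: Nras (0.971), Ddx18 (0.964), Lypd6b (0.961), the guanylate-binding protein gene Gbp8 (0.959) and Fbxw17 (0.955). Gbp8 had 10.88, 10.84 and 12.80 in shZeb1_C, 9.82, 10.61 and 10.43 in shZeb1_D and 9.00, 8.96 and 8.84 in Scr, so that, as with Klrk1, the shZeb1_D arrays lay between the others.

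Beyond the 9, the family holds 18 other measured Klr genes, of which limma called 0 in any of the 3 comparisons. At an unadjusted p under 0.05 there were 7 in shZeb1_C against Scr, 3 in shZeb1_D against Scr and 7 between the hairpins, beside 8.77%, 13.6% and 11.7% of all probe sets. In shZeb1_C 7 of 18 were higher on every array than on every Scr array, beside 7.5% of all probe sets, and the median change was 0.42. Klra7, the brightest of the 18 and the gene of the inhibitory receptor Ly49G, had 11.25, 11.58 and 14.24 in shZeb1_C, 7.19, 9.91 and 8.12 in shZeb1_D and 9.25, 9.31 and 8.61 in Scr. Its shZeb1_C arrays lay above all others, with a change of 3.30 ± 0.84 against Scr (limma adjusted p = 0.148).

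The other 6, named after their values were seen, were Klra10 (2.13), Klrb1f (2.00), Klrc3 (1.69), Klra9 (1.26), Klri2 (0.65) and Klra6 (0.52), given as log2 changes in shZeb1_C against Scr, with adjusted p of 0.122 to 0.256. With the 2 sets of arrays as a covariate, limma called 5 of the 18 in shZeb1_C, in a fit that called 4.47% of all probe sets. The sets were defined from the deviations within groups of these same values. The covariate therefore lowers the spread by construction, and those calls are no added support. Klrb1, also named after its values were seen, ran the other way: it had 6.18, 6.62 and 7.03 in shZeb1_C, 8.33, 11.12 and 8.82 in shZeb1_D and 6.48, 7.73 and 7.52 in Scr. Its shZeb1_D arrays were the 3 highest of the 9, with a change of 2.18 against Scr that did not pass the test.

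The NK gene complex, taken as the 40 measured genes from Klrb1a to Klra2 on chromosome 6, holds 23 Klr genes and 17 others, mostly Clec genes. In shZeb1_C against Scr the median change was 0.52 for the 23 Klr genes and 0.10 for the 17 others. It was -0.01 for the 25 measured genes on one side, Kcna5 to A2ml1, and 0.05 for the 25 on the other, Styk1 to Tas2r113. The 3 calls in the complex were the members Klrc1, Klrk1 and Klra13-ps. Of the 50 flanking genes 0 were called, beside 0.945% of all probe sets. In shZeb1_D the 23 Klr genes had a median of 0.22, the 17 others 0.10 and the flanks 0.02 and 0.14. Of the 40 genes 0 were called, beside 0.843% of all probe sets. The 23 Klr genes include members, which were chosen with earlier results of these arrays known, so their median supports nothing independently. The 18 Klr genes that are no members, some of them outside the complex, had medians of 0.42 in shZeb1_C and 0.21 in shZeb1_D. The difference between these medians was not tested.

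**Figure D4:**
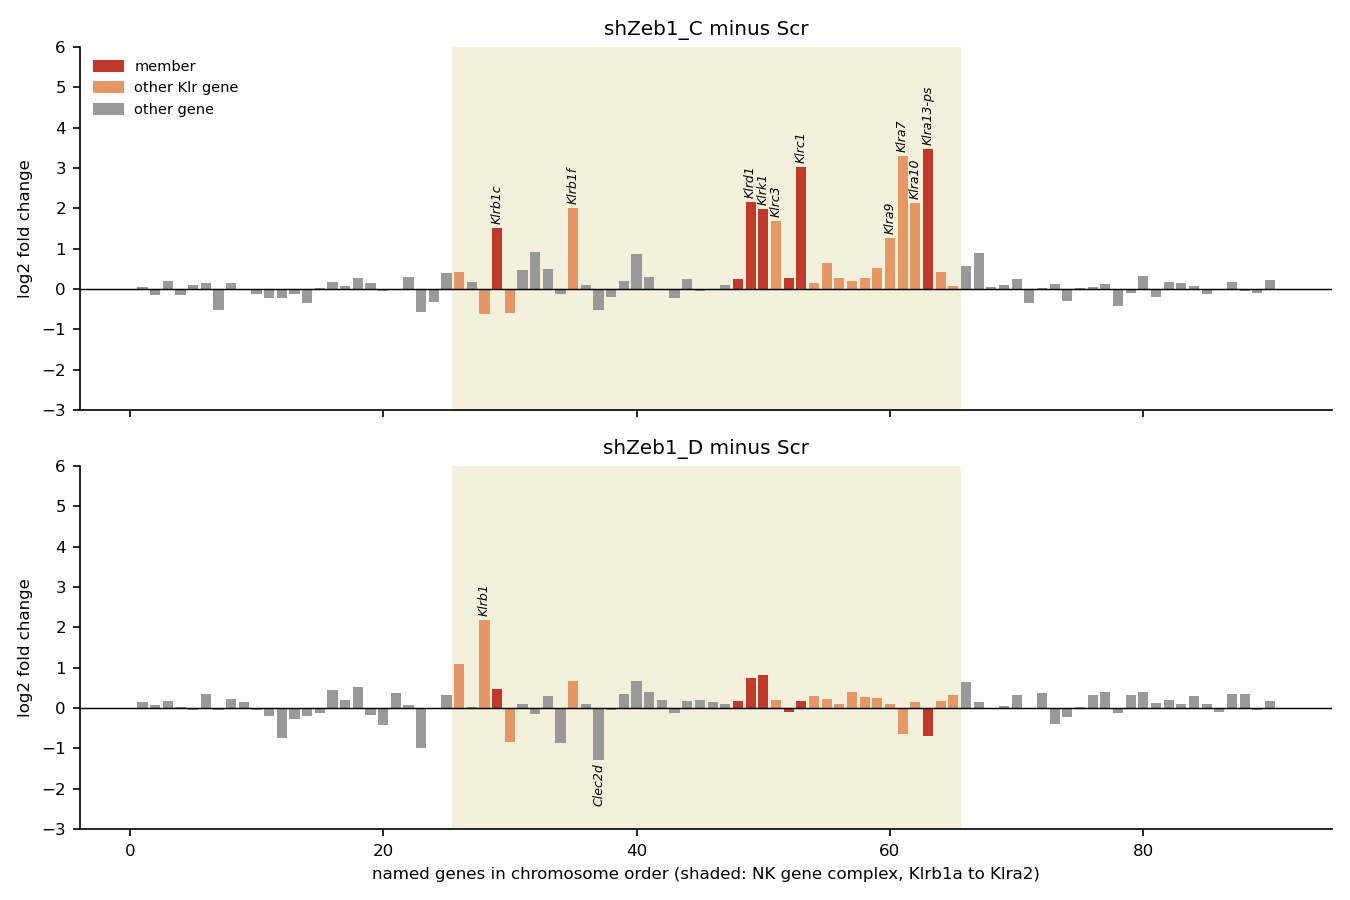
Log2 fold change against Scr of 90 measured genes in chromosome order, for shZeb1_C (top) and shZeb1_D (bottom); the shaded stretch is the NK gene complex, with members in red and other Klr genes in orange, and genes beyond 1.2 in size are named. In the top panel the named bars inside the complex are all Klr genes and all positive; in the bottom panel Klrb1 is positive and Clec2d negative.

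Of 14 other C-type lectin genes that were listed, all but Clec2l within the complex, 0 were called in any comparison. In each comparison 2 of them had an unadjusted p under 0.05. The shares of all probe sets were 8.77% in shZeb1_C against Scr, 13.6% in shZeb1_D against Scr and 11.7% between the hairpins. The brightest of the 14 was Cd69, an early activation marker, with mean log2 signals of 14.01 ± 0.59 in shZeb1_C, 14.18 ± 1.02 in shZeb1_D and 14.22 ± 0.25 in Scr (SD, n = 3 arrays each). Ligands for the receptors were measured for 11 genes, Clec2d, Clec2g and Clec2i being in both lists, and limma called 0 of them in any comparison (3 in shZeb1_C, 1 in shZeb1_D and 1 between the hairpins at an unadjusted p under 0.05, beside 8.77%, 13.6% and 11.7% of all probe sets). H2-T23, which encodes the Qa-1 ligand of the Klrc1 and Klrd1 pair, had 10.80, 10.41 and 11.02 in shZeb1_C, 10.37, 10.81 and 10.79 in shZeb1_D and 10.15, 10.94 and 10.30 in Scr, and the groups overlapped. H2-K1, classical MHC class I, was the brightest ligand gene, with a mean of 15.50 over the 9 arrays.

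Tyrobp, Hcst and Fcer1g, adaptors through which activating receptors signal, gave little signal. Tyrobp averaged 5.37 ± 0.34 in shZeb1_C, 5.62 ± 0.33 in shZeb1_D and 6.09 ± 0.31 in Scr (SD, n = 3 arrays each). Hcst, the adaptor of NKG2D, averaged 6.30 ± 0.09 in shZeb1_C, 6.66 ± 0.08 in shZeb1_D and 6.50 ± 0.27 in Scr, and Fcer1g 5.26 ± 0.21, 5.65 ± 0.24 and 5.81 ± 0.37 in the same groups. All 3 lay below the olfactory gauge's 95th percentile of 7.26 on all 9 arrays, and limma called none in any comparison. Cd247, also among the listed adaptor and signalling genes and named after its values were seen, was brighter. It averaged 7.18 ± 0.09 in shZeb1_C, 7.71 ± 0.22 in shZeb1_D and 7.48 ± 0.09 in Scr and was not called.

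Of 20 adaptor and signalling genes, 2 rose in shZeb1_C and 0 fell, where 0.659% of all probe sets rose and 0.286% fell. In shZeb1_D 0 of the 20 were called, beside 0.843% of all probe sets, and between the hairpins 1 was, beside 0.848%. At an unadjusted p under 0.05 there were 10 in shZeb1_C against Scr, 3 in shZeb1_D against Scr and 7 between the hairpins. The shares of all probe sets were 8.77%, 13.6% and 11.7%. Lcp2, which encodes the scaffold SLP-76, had 12.29, 11.44 and 12.22 in shZeb1_C, 7.66, 7.84 and 7.27 in shZeb1_D and 8.71, 8.03 and 7.87 in Scr. Its shZeb1_C arrays lay far above all others, with a change of 3.78 ± 0.30 against Scr (SE; limma adjusted p = 0.000987) and of 4.39 ± 0.30 against shZeb1_D (adjusted p = 0.000842), and both calls held whichever array was left out. Lat2, the scaffold NTAL, rose by 2.48 ± 0.34 in shZeb1_C (adjusted p = 0.0109) and had a change of 1.68 ± 0.34 in shZeb1_D that did not pass the test (0.0687); its call was lost without Scr array 9 or shZeb1_C array 10. The list's median change was 0.17 in shZeb1_C and -0.14 in shZeb1_D.

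**Figure D5:**
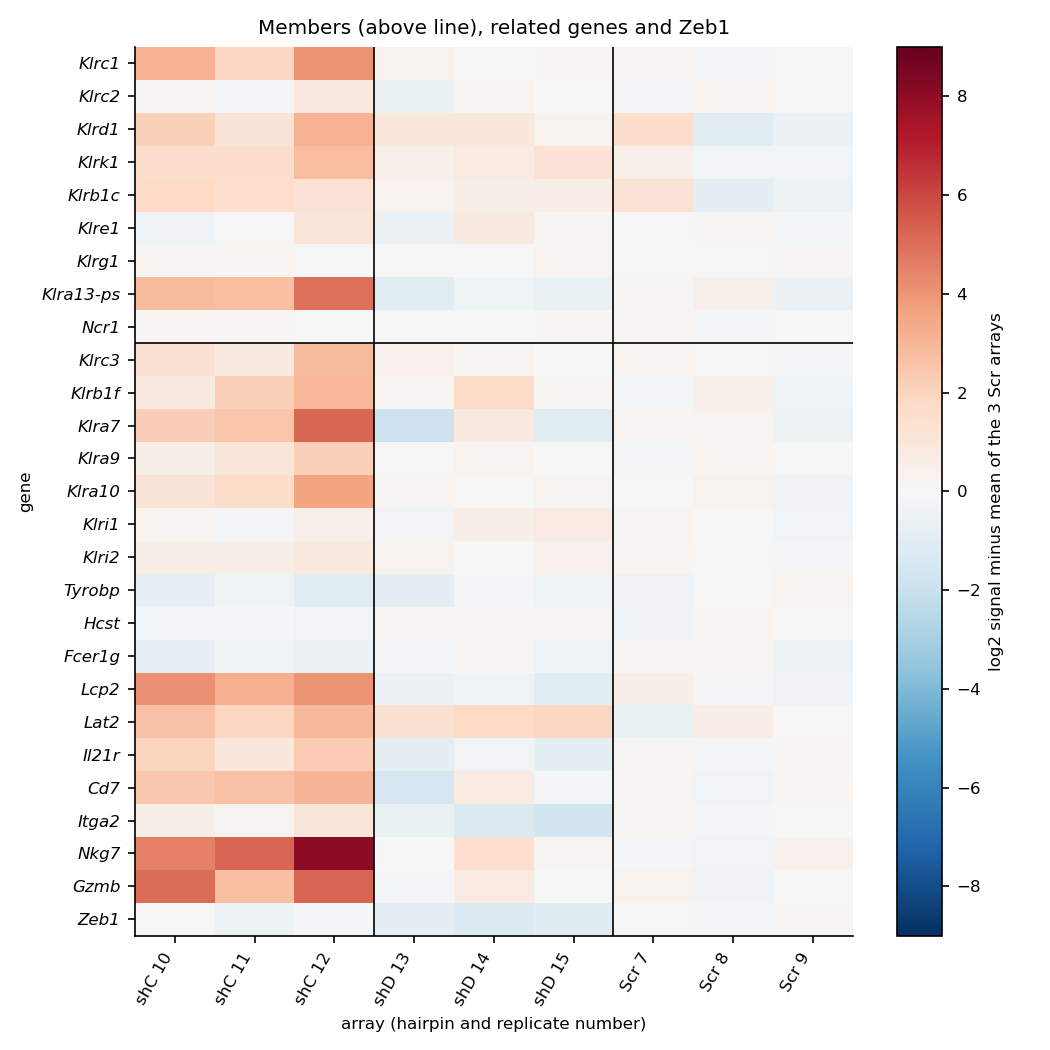
Log2 RMA signal of each array minus the mean of the 3 Scr arrays, for the 9 members (above the line), other Klr genes, adaptors, called genes of the NK lists and Zeb1; red is higher and blue lower than the Scr mean, and columns are shZeb1_C (shC), shZeb1_D (shD) and Scr with the sample number. The shZeb1_C columns are pale to strong red for Klrc1, Klrd1, Klrk1, Klrb1c, Klra13-ps, Lcp2, Cd7, Nkg7 and Gzmb and nearly white for Klrg1, Ncr1 and Zeb1, and the shZeb1_D columns are pale blue for Zeb1.

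The other genes by which NK cells are known moved in part with the receptors. The shares of all probe sets called were 0.945% in shZeb1_C against Scr, 0.843% in shZeb1_D against Scr and 0.848% between the hairpins. Of 13 further NK cell surface genes Cd7 rose in shZeb1_C by 2.70 ± 0.47 (SE, limma adjusted p = 0.0336), and 0 fell. In shZeb1_D 0 of the 13 were called. At an unadjusted p under 0.05 there were 5 in shZeb1_C against Scr, 4 in shZeb1_D against Scr and 3 between the hairpins. The shares of all probe sets were 8.77%, 13.6% and 11.7%. Itga2, the integrin chain CD49b, was higher in shZeb1_C than in shZeb1_D by 1.79 ± 0.29 (adjusted p = 0.0282) but not against Scr (0.63 ± 0.29, adjusted p = 0.614). Of 11 cytotoxic effector genes, Nkg7 and Gzmb rose in shZeb1_C, by 5.93 ± 0.80 and 4.33 ± 0.59 (adjusted p = 0.0109 for both), while Prf1, the perforin gene, named after its values were seen, lay between 5.09 and 5.40 on all 9 arrays. At an unadjusted p under 0.05 there were 3, 1 and 4 of the 11 in the same order of comparisons, beside the same shares. The Scr and shZeb1_D arrays of Nkg7, Gzmb and Il21r all lay below the gauge's 95th percentile, so the sizes of their differences are set against dim signals and are uncertain. Of 8 cytokine receptor genes, Il21r was higher in shZeb1_C than in shZeb1_D by 2.41 ± 0.33 (adjusted p = 0.0141), and its change against Scr of 1.73 ± 0.33 did not pass the test (adjusted p = 0.0531). Of these 8, the unadjusted p was under 0.05 for 3 in shZeb1_C against Scr, 0 in shZeb1_D against Scr and 3 between the hairpins. The Cd7, Nkg7 and Gzmb calls against Scr were lost without Scr array 8 or 9, and that of Cd7 also without Scr array 7, any 1 of the shZeb1_C arrays or shZeb1_D array 15.

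Of 14 transcription factor genes of the NK and T lineages 0 were called in any comparison, with 3 at an unadjusted p under 0.05 in shZeb1_C against Scr, 1 in shZeb1_D against Scr and 4 between the hairpins, beside the shares of 8.77%, 13.6% and 11.7% of all probe sets. Runx3, which encodes a Runx factor, was the brightest of them, with mean log2 signals of 14.29 ± 0.18 in shZeb1_C, 14.13 ± 0.47 in shZeb1_D and 14.34 ± 0.17 in Scr (SD, n = 3 arrays each). Whether its product binds the stretches capitalised above was not tested. Tbx21 and Eomes, named after their values were seen because they encode the T-box factors of NK cells, lay between 4.63 and 5.65 on all 9 arrays, below the olfactory median on each.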

How the data were processed

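Total RNA of 9 samples was biotin-labelled and hybridised to 1-colour arrays, 3 samples for each of shZeb1_C, shZeb1_D and Scr. RMA and the Transcriptome Analysis Console made the values, per the submitters' processing notes, which give no versions, and the build of the probe sets is not given. In the table the authors deposited, RMA signals stand on the linear scale and have lost their decimal points. A log2 value of 2 decimals lies behind each signal, so the point of all 199854 values was put back where log2 became a whole number of 0.01 steps; accepted places missed by at most 9.1e-13 steps, and the best alternative place missed by 0.036. Array medians were 6.97 to 7.16, and 0 pairs of arrays were identical. RMA fits probe behaviour over all arrays together and compresses differences of dim and very bright probe sets.

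Of 22206 probe sets, the 19572 with 1 gene symbol in the platform annotation were tested; 2634 had none there and were left out. Each was fitted with limma 3.58.1 in R 4.3.3 (a mean per group, 9 arrays, empirical Bayes), with Benjamini-Hochberg adjustment within each comparison; the script was tested on simulated data. Brightness was judged against olfactory and vomeronasal receptor probe sets. The alternatives were 10 other settings and leaving out each of the 9 arrays. Promoters came from a RefSeq table of GRCm38.p6. Members and gene lists were chosen with earlier results of these data known. Genes were named by rule: the members, Zeb1, up to 6 called genes and the brightest gene of each list, direct partners and adaptors, and the 5 genes most like each called member; some genes the rule covers are not described, and others outside it are cell type markers or are said to be named after their values were seen. Listed genes without a probe set were not analysed here. The number of arrays limits the precision.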

Additional observations from a re-analysis of the deposited data

Results flagged for a closer look

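Several genes were picked out because the hairpins' changes against the same Scr arrays differed from each other, by limma's test of shZeb1_C minus shZeb1_D. Among the receptors these were Klrc1, with a difference of 2.85 on the log2 scale, and Klra13-ps, with 4.17. Among the related genes they were Nkg7 (5.33), Lcp2 (4.39), Gzmb (4.13), Cd7 (3.01), Il21r (2.41) and Itga2 (1.79). All 8 were higher in shZeb1_C, the arrays in which Zeb1 itself did not differ from Scr, on each of 3 arrays than on each of the 3 shZeb1_D arrays. The Lcp2 difference kept an adjusted p under 0.05 whichever array was left out. The other 7 lost it without shZeb1_D array 15, and each but Klra13-ps and Nkg7 also without shZeb1_C array 10. No cause of these differences was tested.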

How the results depend on the processing

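No paired analysis was possible because the groups share no replicate numbers. The count of receptors called in shZeb1_C minus Scr was 3 and fell to 0 with only the 6 arrays compared in the fit; it ran from 0 to 3 when each array was left out in turn. In shZeb1_C minus shZeb1_D the count was 2 and was 1 with only the 6 arrays compared and 1 with only probe sets above the median level, where 4 of the 9 receptors were tested; it ran from 0 to 2 with an array left out. Fewer arrays leave fewer degrees of freedom; no other cause was tested. In shZeb1_D minus Scr it was 0 in each setting. Over all probe sets, the calls were 185 in shZeb1_C minus Scr, 165 in shZeb1_D minus Scr and 166 between the hairpins. With array weights they were 572, 1076 and 833, with the 2 sets of arrays as a covariate 875, 772 and 700, and at an adjusted p under 0.1 they were 316, 300 and 313. The 2 sets were defined from these same values, so the covariate fit gives no independent support. With only the 6 arrays compared the calls were 125 in shZeb1_C minus Scr, 68 in shZeb1_D minus Scr and 81 between the hairpins. Leaving out 1 array gave 43 to 214, 14 to 213 and 49 to 162. The Zeb1 fall in shZeb1_D kept its direction in all settings, at -1.14 to -0.91, but was not called with an eBayes trend, with only 6 arrays or without Scr array 7, 8 or 9 or shZeb1_D array 14 or 15 (highest adjusted p 0.157).

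Sign changes occurred in differences that passed no test. With array weights the change was 0.06 for Klrc2 and 0.01 for Ncr1 in shZeb1_D minus Scr and -0.37 for Klre1 in shZeb1_C minus shZeb1_D. With the sets of arrays as a covariate it was -0.11 for Klre1, 0.00 for Ncr1, -0.14 for Klra10 and -0.09 for Klra9 in shZeb1_D minus Scr. With 1 array left out, the shZeb1_C minus Scr change ran from -0.01 to 0.51 for Klrc2 and -0.17 to 0.55 for Klre1. The shZeb1_D minus Scr change ran from -0.26 to 0.17 for Klrc2, -0.15 to 0.53 for Klre1, -0.06 to 0.06 for Ncr1, -0.82 to 0.28 for Cd7, -0.06 to 0.38 for Gzmb and -0.02 to 0.30 for Klra10. The difference between the hairpins ran from -0.34 to 0.41 for Klre1 and -0.02 to 0.12 for Klrg1. The cause was not tested. Signal limits Klrc2, Klrg1 and Ncr1, which lay below the olfactory and vomeronasal 95th percentile on all 9 arrays.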
